A study of Mus musculus with 32 samples.

Results

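The 36 genes described here are expressed by cells of the oligodendrocyte lineage, 34 of them by mature, myelinating oligodendrocytes and 2, Gpr17 and Enpp6, by cells on the way to that state. They were listed by name, with earlier results of these data known, and looked up on an array whose probes carry the names of 16593 genes. Of the 36, 33 had a probe and 30 were tested, through 40 probes with signal above background in at least 6 of 32 arrays. Each gene is represented by its tested probe with the highest mean signal, and values of other probes are named as such.

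Each array holds whole-brain RNA of 1 naïve male mouse. The 4 strains were R8 (10 mice), B6 (10 mice), R2 (6 mice) and D2 (6 mice). B6 (C57BL/6J) and D2 (DBA/2J) are inbred. R8 carries a 1.1 Mb segment of D2 sequence on distal chromosome 1 and is otherwise B6, and R2 carries a 10.2 Mb segment of B6 sequence from the same region and is otherwise D2. Each congenic is 1 line, so the segment and anything else fixed in that line cannot be told apart. By design a congenic differs from its background strain in the segment alone, and 0 of the 30 tested genes lie in the R2 interval, which spans that of R8. The mean of R2 and D2 was set against the mean of R8 and B6 to compare the D2 background with the B6 background.

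Myelin is the membrane that oligodendrocytes wrap around axons. Its compacted layers are held together by a few abundant proteins, among them myelin basic protein (Mbp), and its lipids are rich in galactosylceramide and cholesterol. Precursors pass through a short premyelinating stage, marked by the receptor Gpr17 and the phosphodiesterase Enpp6, before they switch on the myelin genes. In RNA of a whole brain, a lower level of these genes from fewer oligodendrocytes and from less RNA per oligodendrocyte cannot be told apart.

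Signals are given as log2 values after background correction and quantile normalization of all 32 arrays, and differences are on that log2 scale. They were tested by limma, with Benjamini-Hochberg adjustment over 12351 probes, and a gene is said to be called where the adjusted p is under 0.05. Between 10944 and 12283 probes per array were detected in R8, 11223 to 12252 in B6, 10834 to 11569 in R2 and 11267 to 11949 in D2. The labels number the brains within a strain, and the paper's methods state that RNA came from individual animals. According to the paper, its sample size did not allow effects of cage or family to be determined. Precision is limited by how many arrays a strain has.

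Transcripts that define oligodendrocytes were present in every brain. Of the 30 tested members 28 were detected in all 32 arrays, including Mbp, Mag, Mog, Cnp and Olig1. The exceptions were Gjb1 (connexin 32, a gap junction protein of myelin), detected in 5 R8, 4 B6, 0 R2 and 0 D2 arrays, and Gsn (gelsolin, which severs actin filaments), detected in 2 R8, 1 B6, 1 R2 and 3 D2 arrays. Olig2 and Ermn had a probe that was detected in 0 arrays and Aspa one that was detected in 2, so they were not tested. No probe carried the name Sox10, Nkx6-2 or Cntn2.

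The larger differences lay between the 2 genetic backgrounds. On the D2 background 9 members were called lower, the protease Klk6, the lipocalin Apod, the myelin proteins Mobp, Mal, Cnp and Mog, the chaperone Cryab, the deacetylase Sirt2 and the pterin reductase Qdpr. Another 2, the carbonic anhydrase Car2 and Plekhb1, were called higher. The share called lower, 9 of 30, stood beside 13.1% of the 8674 genes tested, and the share called higher, 2 of 30, beside 16.0%. The median difference of the 28 mature members was -0.05 (-0.03 with median scaling), against 0.02 over all genes. Of the 28 differences 21 were negative and 7 positive, while 57.7% of all genes had a positive one. Klk6, Car2, Sirt2, Cnp, Mal and Mobp had the smallest adjusted p-values among the members. Whether B6 and D2 differ in sequence under a probe was not tested.

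**Figure D1:**
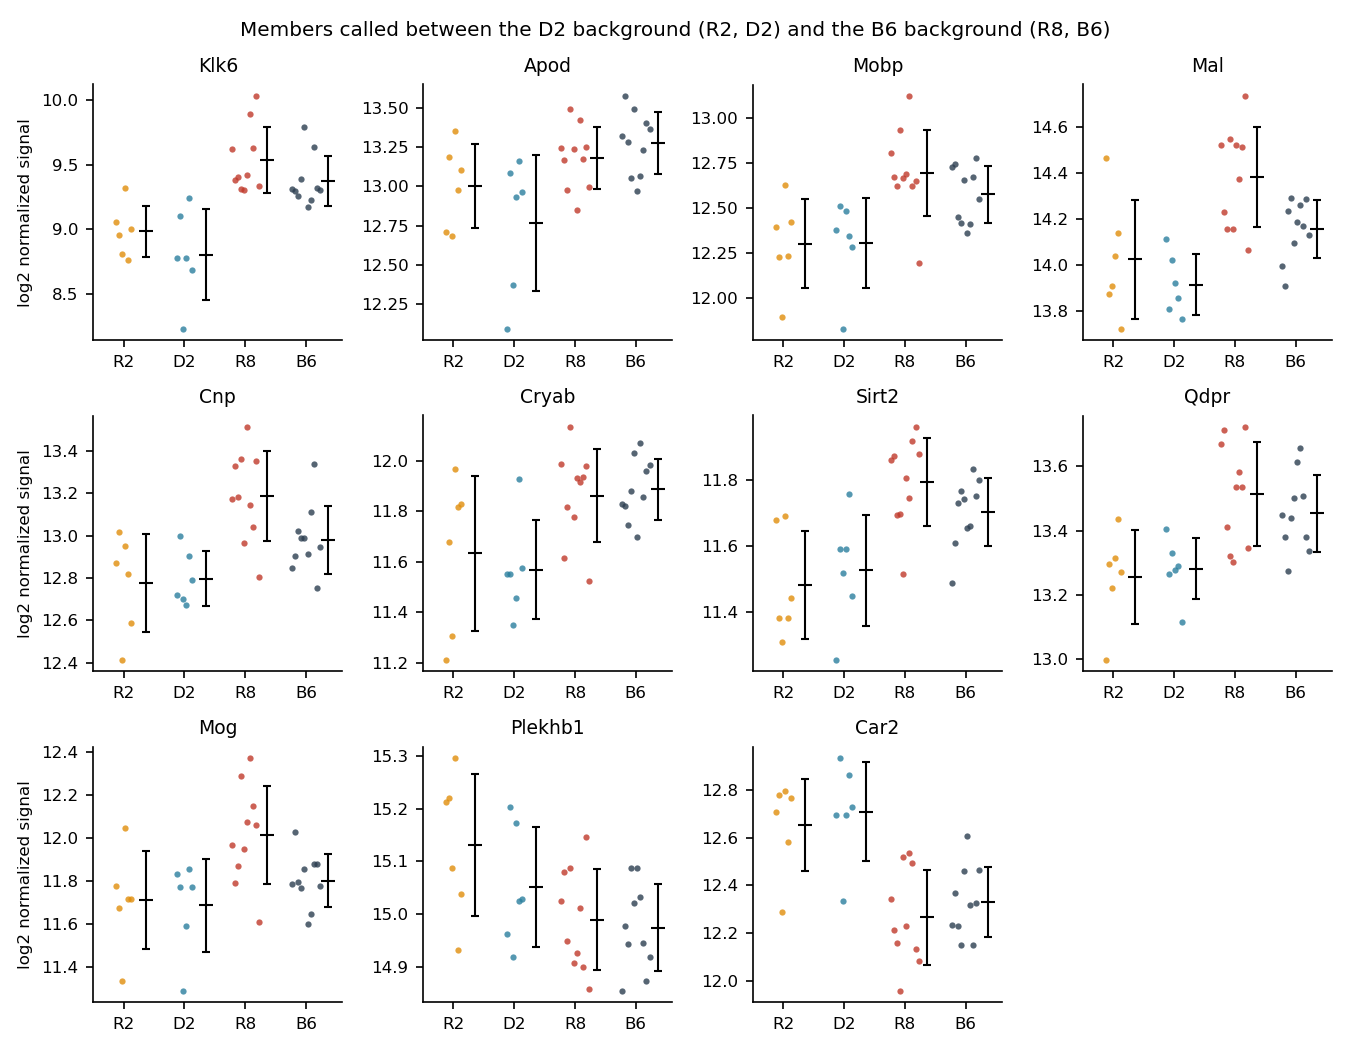
Log2 normalized signal of the 11 members called between backgrounds, 1 panel per gene, with 1 point per brain and the mean and SD of each strain beside it. The means of R2 and D2 lie below those of R8 and B6 in 9 panels and above them for Plekhb1 and Car2, with the least overlap for Klk6 (10 of 12 brains below all others) and Car2 (9 of 12 above).

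Among secreted proteins and enzymes, Klk6 (chromosome 7, 43824438 to 43832027 in GRCm38), a secreted serine protease of oligodendrocytes, differed most. Its signal ran from 8.77 over a median of 8.98 to 9.32 in R2 and from 8.23 over 8.78 to 9.24 in D2, against 9.30, 9.41 and 10.03 (lowest, median, highest) in R8 and 9.17, 9.31 and 9.79 in B6. Of the 12 brains on the D2 background, 10 were below all 20 on the B6 background. The difference was -0.56 (standard error 0.09, 1.47-fold lower, adjusted p = 3.53e-06 from limma). It was -0.36 without background correction and with the values normalized by the authors.

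Car2 (chromosome 3, 14886269 to 14900770), the cytosolic carbonic anhydrase of oligodendrocytes, went the other way. Its signals were 12.29, 12.74 and 12.79 (lowest, median, highest) in R2 and 12.33, 12.71 and 12.93 in D2, against 11.96, 12.22 and 12.53 in R8 and 12.15, 12.32 and 12.61 in B6. On the D2 background 9 of 12 brains were above every brain of the B6 background, and the lowest brains of R2 and D2 fell among those of R8 and B6. The difference was 0.38 (standard error 0.07, 1.30-fold higher, adjusted p = 1.73e-05 from limma). A dimmer probe of Car2, detected in all R2 and D2 arrays but in 6 R8 and 8 B6 arrays, gave 0.80 (adjusted p = 2.16e-05).

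Apod, a lipocalin that binds small lipids, gave -0.34 (standard error 0.09, adjusted p = 0.00433 in limma's fit), with 4 of 12 brains on the D2 background below all others. Its lowest values were those of D2, down to 12.09, while the medians were 13.04 in R2, 12.95 in D2, 13.21 in R8 and 13.30 in B6. Qdpr, which regenerates tetrahydrobiopterin, had a smaller difference with less spread, -0.22 (standard error 0.05, adjusted p = 0.000965). The remaining members of this kind, Ugt8a (which makes galactosylceramide), Fa2h (which hydroxylates its fatty acid) and Trf (the iron carrier transferrin), had differences of 0.07, -0.01 and -0.05, none of them called. The enzymes of myelin galactolipids were thus not among the called genes.

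Of the proteins of compact myelin, Mobp and Mal were called, 2 lower of 7 beside 13.1% of all genes called lower and 16.0% higher. Mobp (chromosome 9, 120149742 to 120181488) encodes small basic proteins of the compacted layers, and it was read by 3 probes. The probe with the highest signal gave 11.90, 12.31 and 12.63 (lowest, median, highest) in R2 and 11.83, 12.36 and 12.51 in D2, against 12.20, 12.67 and 13.12 in R8 and 12.36, 12.60 and 12.78 in B6, groups that overlapped. Its difference was -0.33 (standard error 0.08, adjusted p = 0.000915 from limma).

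The other Mobp probes differed more between backgrounds. ILMN_3024681 gave -0.52 (standard error 0.06, adjusted p = 1.62e-08), with all 12 brains on the D2 background, 10.75 to 11.26, below all 20 on the B6 background, 11.29 to 11.93. ILMN_1223628 gave -0.68 (standard error 0.09, adjusted p = 3.58e-07), with 9 of 12 brains below all others. The 3 probes thus shared the direction, with sizes from -0.33 to -0.68.

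**Figure D2:**
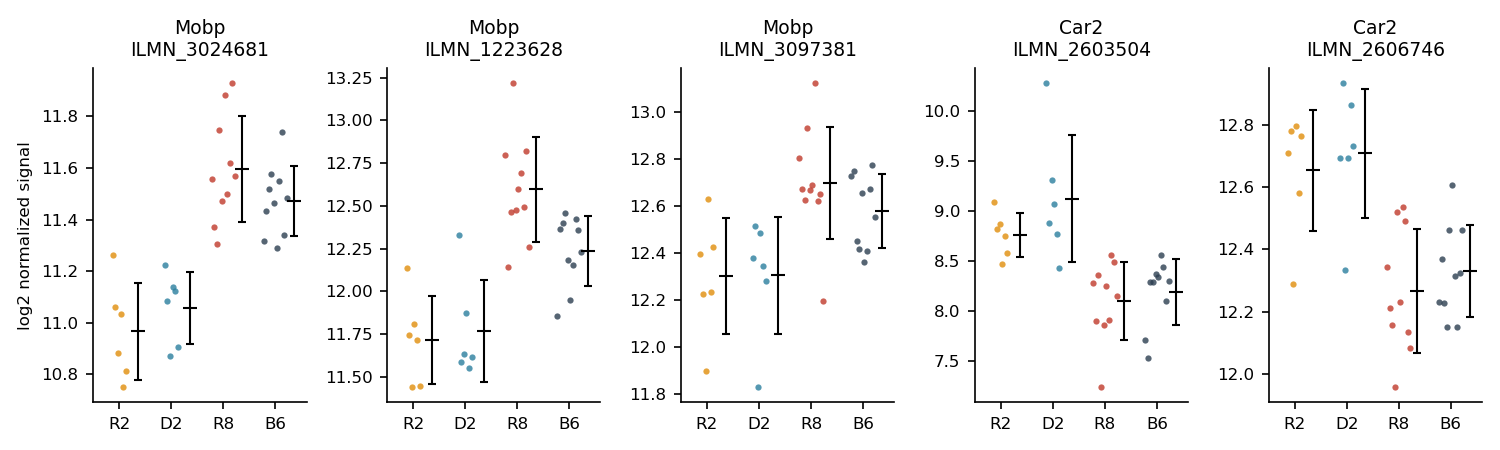
Log2 normalized signal by probe for Mobp (3 probes) and Car2 (2 probes), with 1 point per brain and the mean and SD of each strain beside it. For Mobp the D2 and B6 backgrounds separate fully with ILMN_3024681 and overlap with ILMN_3097381, and for Car2 both probes are higher in most R2 and D2 brains.

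Mal, a proteolipid that sorts membrane to myelin, was lower by both of its probes. The brighter probe ran from 13.72 over a median of 13.97 to 14.46 in R2 and from 13.77 over 13.89 to 14.11 in D2, against 14.06, 14.44 and 14.73 (lowest, median, highest) in R8 and 13.91, 14.18 and 14.29 in B6. Of the 12 brains on the D2 background 5 were below all others, and R2 replicate 1 lay above the R8 median. The difference was -0.30 (standard error 0.07, adjusted p = 0.000664 from limma), and the dimmer probe gave -0.40 (adjusted p = 4.36e-06).

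Cldn11 (the claudin of myelin tight junctions), Tspan2 (a tetraspanin), Pllp (plasmolipin) and Cd9 (a tetraspanin that other cells also express) had differences of -0.05, -0.04, -0.09 and 0.15, none of them called. Mbp was read by 3 probes with different outcomes. Its brightest probe lay at 96.0% to 100% of the highest signal on each array, and its strain means were 16.09 in R2, 16.10 in D2, 16.08 in R8 and 16.08 in B6, and differences near this ceiling are compressed. The middle probe, ILMN_3081854, had medians of 13.91 in R2, 13.73 in D2, 14.09 in R8 and 13.94 in B6 and gave -0.23 between backgrounds (p = 0.015 and adjusted p = 0.0529 from limma), and the dimmest one had 0.07 (adjusted p = 0.291).

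At the myelin surface, Mog alone was called, 1 lower of 4 tested genes beside 13.1% of all genes called lower and 16.0% higher. Mog (chromosome 17, 37010740 to 37023398) encodes myelin oligodendrocyte glycoprotein of the outermost layer. Its signal ran from 11.34 over a median of 11.72 to 12.05 in R2 and from 11.29 over 11.77 to 11.86 in D2, against 11.61, 12.01 and 12.37 (lowest, median, highest) in R8 and 11.60, 11.79 and 12.03 in B6. Only 3 of 12 brains on the D2 background were below all others, and the median of D2 was close to that of B6.

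The difference of Mog between backgrounds was -0.21 (standard error 0.07, adjusted p = 0.0225 from limma). Its second probe gave -0.27 (adjusted p = 0.021). The call was lost without D2 replicate 3 (adjusted p = 0.0603) or R2 replicate 3 (0.061) and with median scaling in place of quantiles (0.0656). Mag, an adhesion molecule that faces the axon, and Opalin, a glycoprotein of the paranodal loops, had differences of -0.04 and -0.06. Gjb1 was not above background in any R2 or D2 array, and it was not called.

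The 2 Mog probes are shown because they are not separate readings of the transcript. Each is 50 bases long, and the 33 bases in capitals are in both.
Mog ILMN_1259536: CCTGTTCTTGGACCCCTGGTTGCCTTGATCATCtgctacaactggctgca
Mog ILMN_2615034: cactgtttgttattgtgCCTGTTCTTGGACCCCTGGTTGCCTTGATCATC

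Of cytoplasmic and cytoskeletal proteins 3 were called lower and 1 higher among 7, beside 13.1% and 16.0% of all genes. Cnp (chromosome 11, 100574909 to 100591875), the phosphodiesterase that keeps cytoplasmic channels in myelin open, had signals of 12.41, 12.84 and 13.02 (lowest, median, highest) in R2 and 12.67, 12.75 and 13.00 in D2, against 12.81, 13.18 and 13.51 in R8 and 12.75, 12.97 and 13.34 in B6. Its difference was -0.30 (standard error 0.07, adjusted p = 0.000639 from limma), with 5 of 12 brains on the D2 background below all others, and its second probe gave -0.25 (adjusted p = 0.00196).

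Sirt2, a deacetylase of tubulin that is abundant in myelin, had medians of 11.41 in R2, 11.55 in D2, 11.83 in R8 and 11.74 in B6. It differed by -0.25 (standard error 0.05, adjusted p = 0.000247 from limma), with 6 of 12 brains on the D2 background below all others. Cryab, a small heat shock protein, differed by -0.27 (standard error 0.07, adjusted p = 0.00265). Plekhb1, a membrane-bound protein with a pleckstrin homology domain, differed by 0.11 (standard error 0.04, 1.08-fold, adjusted p = 0.0394), and its call was lost without any 1 of 14 arrays (B6 replicates 1, 2, 8 and 9, D2 replicates 2 and 4, R2 replicates 1, 2 and 4, and R8 replicates 2, 4, 5, 7 and 9). It was also lost without a detection filter (adjusted p = 0.0732). Bcas1 and Ndrg1 had differences of -0.07 and -0.08, and Gsn, detected in 7 of 32 arrays, was not called.

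The probe of Gsn is shown because it was detected in few arrays. It holds an ATG, in capitals, at base 13, and its place in the transcripts was not looked up. Which forms of the Gsn transcript it reads is thus not known, and its low signal may not hold for all of them. The dimmer probes of Mal and Cnp, which gave the same direction as the brighter ones, follow.
Gsn ILMN_2679386: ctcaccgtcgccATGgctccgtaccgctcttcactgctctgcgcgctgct
Mal ILMN_1224029: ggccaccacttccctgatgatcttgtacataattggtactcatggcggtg
Cnp ILMN_1257097: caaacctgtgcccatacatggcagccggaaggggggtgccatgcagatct

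The genes of transcription and differentiation did not differ between backgrounds by this test. Olig1, a transcription factor of the whole lineage, Tmem98, a membrane protein that inhibits the transcription factor Myrf, and St18, a zinc finger factor, had differences of -0.02, -0.03 and -0.01, with adjusted p-values from limma of 0.75, 0.769 and 0.951. The precursor genes were not called either, with 0.04 for Gpr17 and -0.13 for Enpp6 (p = 0.0474, adjusted p = 0.13).

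Some markers of other cells were also called between backgrounds. Of 9 microglial markers 6 were called lower and 1 higher, and their mean level lay between 9.38 and 9.76 in R2 and 9.52 and 9.66 in D2, against 9.68 to 10.01 in R8 and 9.80 to 10.03 in B6. Of 9 astrocyte markers 3 were called higher and 1 lower, and of 9 neuronal markers 1 each. Over all genes 16.0% were called higher and 13.1% lower. At 1 of 9, the astrocyte count called lower and both neuronal counts did not exceed these shares. The 5 tested markers of hindbrain and spinal cord had differences from -0.46 to 0.67, none of them called. The part of these cells and regions in the differences of the myelin genes was not tested.

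The parental strains alone, D2 against B6, share their arrays with the comparison of backgrounds. Here Car2 was called higher by 0.38, and Klk6 (-0.57), Apod (-0.51) and Cryab (-0.32) were called lower, 1 and 3 of 30 members beside 10.9% and 10.4% of all genes. Mal, Mobp, Sirt2 and Qdpr had differences of -0.24, -0.27, -0.18 and -0.17, with adjusted p-values from limma of 0.0706, 0.077, 0.0814 and 0.084. Cnp, Mog and Plekhb1, also called between backgrounds, had -0.18, -0.11 and 0.08 here, with adjusted p-values from limma of 0.183, 0.471 and 0.389. The median of the 28 mature members was -0.02, against 0.02 over all genes.

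**Figure D3:**
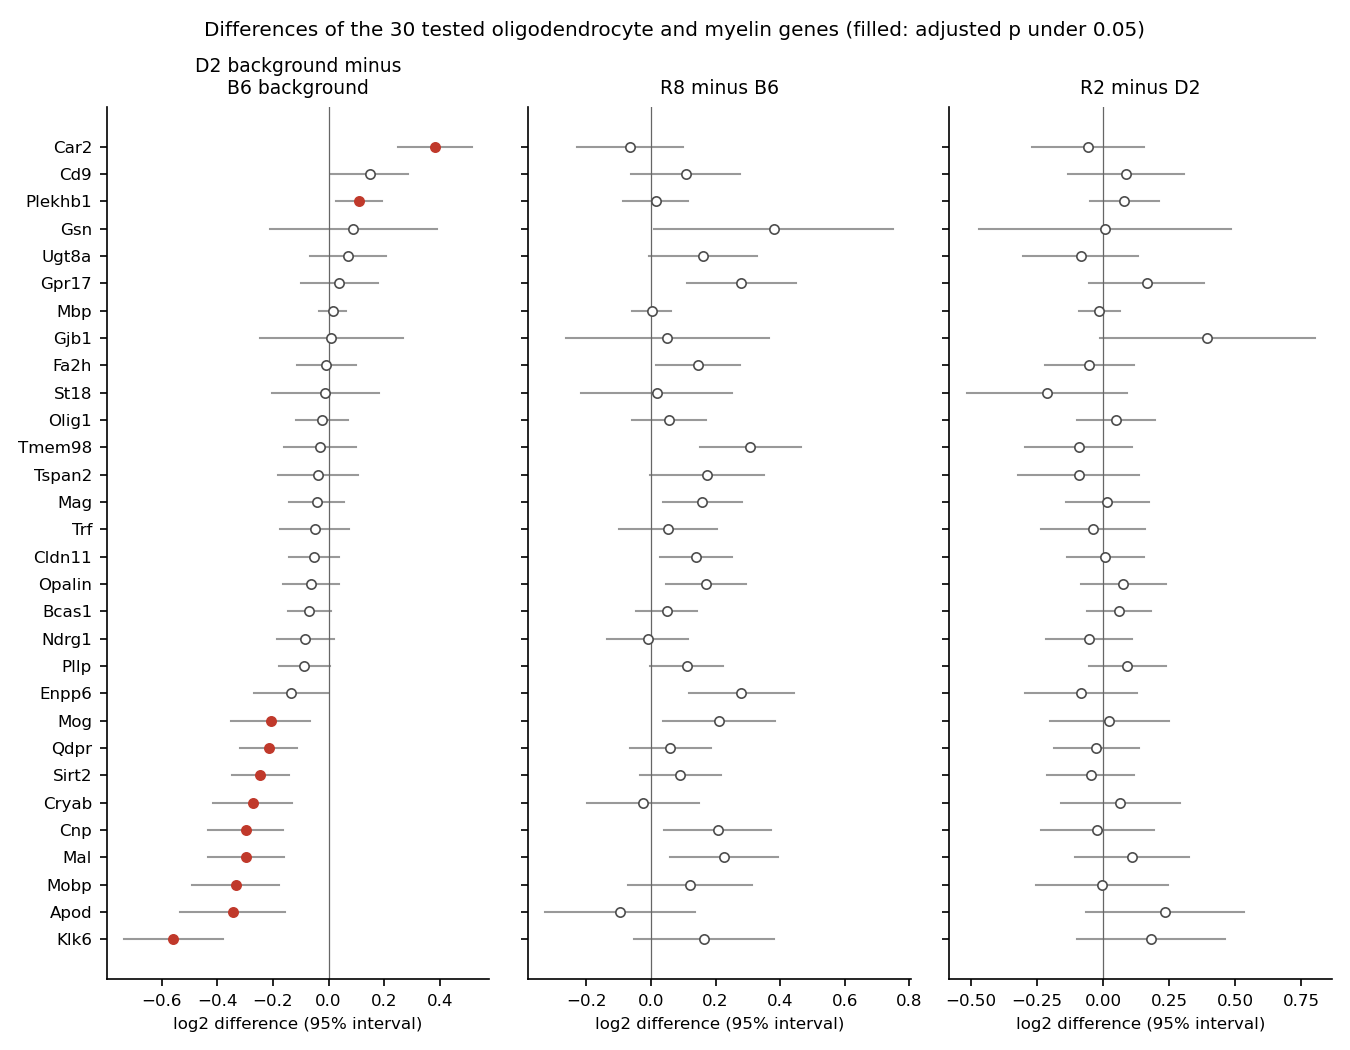
Log2 difference of each of the 30 tested members, with its 95% interval, for the D2 background minus the B6 background, R8 minus B6 and R2 minus D2. Filled points are called. The left panel holds 11 of them, and in the middle panel 26 of 30 points lie right of 0 without a call.

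Between R8 and B6, brains that differ in the short segment, the members leaned to higher signal in R8 and none was called. Differences were positive for 26 of 30 members, while 48.9% of all genes had a positive one. The median of the 28 mature members was 0.11, against -0.00 over all genes, and both precursor genes had 0.28. At an adjusted p under 0.05 there were 0 members, beside 0.104% of all genes. At an unadjusted p under 0.05 from limma 11 members were higher and 0 lower, beside 2.41% and 1.87% of all genes, and under 0.01 there were 5 higher and 0 lower, beside 0.565% and 0.404%. Members vary together between brains, as described below, so they are not separate pieces of evidence.

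**Figure D4:**
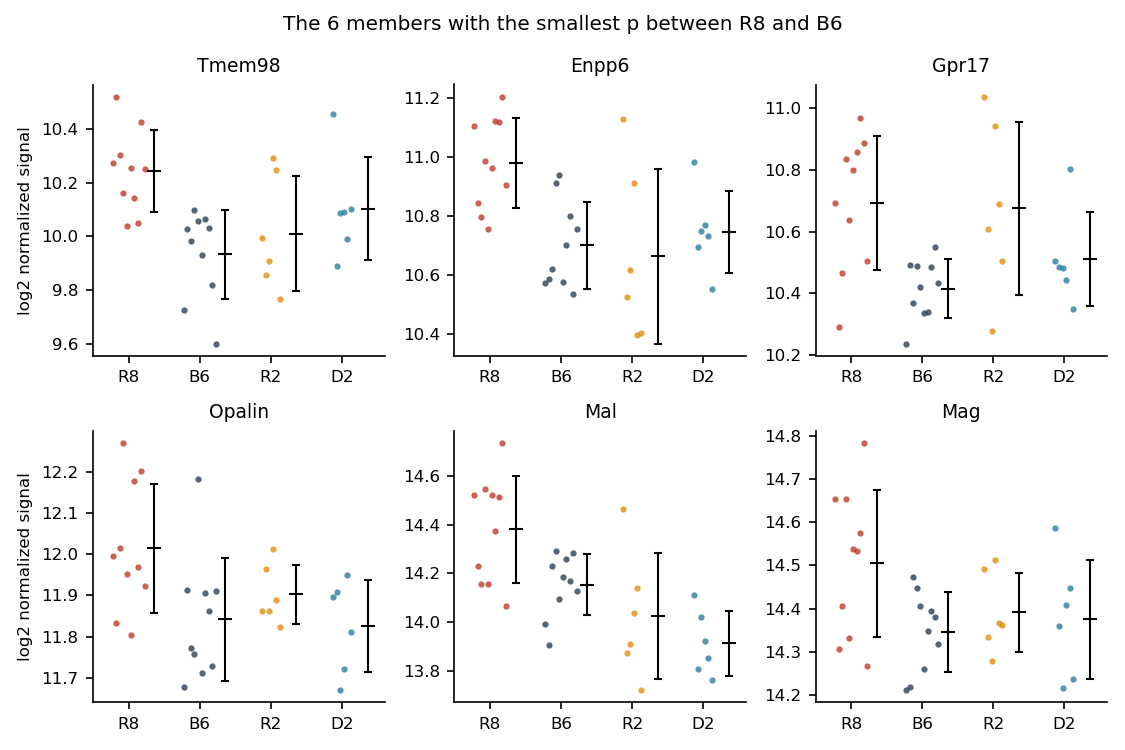
Log2 normalized signal of the 6 members with the smallest p between R8 and B6, in all 4 strains, with 1 point per brain and the mean and SD of each strain beside it. R8 brains sit above most B6 brains in each panel, and the R2 and D2 brains overlap.

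Tmem98 (chromosome 11, 80810366 to 80822033) had the smallest p. Its signal was 10.04, 10.25 and 10.52 (lowest, median, highest) in R8, against 9.60, 10.01 and 10.10 in B6, and 8 of 10 R8 brains were above every B6 brain. The difference was 0.31 (standard error 0.08, 95% interval 0.15 to 0.46, p = 0.000358 and adjusted p = 0.245 from limma). Its other probe had medians of 9.29 in R8 and 9.25 in B6 and gave 0.05 (p = 0.473), so the reading rests on 1 probe.

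The precursor gene Enpp6 (chromosome 8, 46939197 to 47096762), a choline phosphodiesterase, had 10.76, 10.97 and 11.20 in R8, against 10.53, 10.66 and 10.94 in B6. All 10 R8 brains were above the B6 median and 6 were above every B6 brain. The difference was 0.28 (standard error 0.08, 95% interval 0.12 to 0.44, p = 0.00142 and adjusted p = 0.531 from limma).

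Gpr17, the receptor that holds precursors back from myelination, had 10.29, 10.75 and 10.97 in R8, against 10.24, 10.43 and 10.55 in B6. Of the R8 brains 7 were above every B6 brain, and R8 replicate 10 was low. The difference was 0.28 (standard error 0.08, 95% interval 0.11 to 0.45, p = 0.00197 and adjusted p = 0.616 from limma). The spread was wider in R8, with an SD of 0.22, than in B6, with 0.09, a difference in spread that was not tested.

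Among mature genes, Opalin had a difference of 0.17 (p = 0.0083), Mal 0.23 (p = 0.00941) and Mag 0.16 (p = 0.0116), each with an adjusted p of 1 from limma. Mag ran from 14.27 over a median of 14.54 to 14.78 in R8, against 14.21, 14.36 and 14.47 in B6, so that 6 of 10 R8 brains were above every B6 brain. Opalin had medians of 11.98 in R8 and 11.82 in B6, and the highest B6 brain was above 8 of 10 R8 brains.

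Cldn11 (0.14), Cnp (0.21), Mog (0.21) and Fa2h (0.15) also had an unadjusted p under 0.05 from limma, between 0.016 and 0.0306. The last of the 11 was Gsn (p = 0.0441), with a probe above background in 2 of the R8 and 1 of the B6 brains, so that 10 remain without it. The 4 members with a negative difference were Apod (-0.10), Car2 (-0.06), Cryab (-0.03) and Ndrg1 (-0.01, and 0.02 by its other probe). Car2, Cryab and Apod, called between the backgrounds, thus had no positive difference here.

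The mean over the 28 mature members gives the lean brain by brain. It was 12.33, 12.59 and 12.76 (lowest, median, highest) in R8, against 12.39, 12.46 and 12.55 in B6. In R2 it was 12.28, 12.41 and 12.61, against 12.29, 12.44 and 12.52 in D2. The R8 brains spanned a wider range than the B6 brains, with R8 replicate 9 below every B6 brain and the other 9 above the B6 median. The deposited table was also split into 4 sets of 8 columns that stand next to each other, each with 2 or 3 brains of R8 and of B6. Within these sets the difference between R8 and B6 in this mean was 0.04, 0.04, 0.24 and 0.11. The number of members with a positive difference was 20, 19, 26 and 23 of 30.

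The count of 5 at an unadjusted p under 0.01 moved with single arrays. It was 3 without R8 replicate 1, 3, 6 or 8 or B6 replicate 1 or 5, 8 without R8 replicate 4 and 9 without R8 replicate 9. No member was called under any setting.

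Genes of hindbrain and spinal cord also had positive differences in this comparison. Of 17 such markers 5 were tested, and all 5 had a positive difference between R8 and B6, from 0.15 to 0.36, with none called. All 5 were also positive between R2 and D2, from 0.02 to 0.61 with none called, where the median of the mature members was 0.01. The mean level of the 5 markers lay between 7.65 and 10.32 in R8 brains, 7.80 and 9.98 in B6 brains, 8.64 and 10.23 in R2 brains, and 7.93 and 9.80 in D2 brains. Hoxb5, a patterning gene of the caudal brainstem and cord, went from 7.96 to 11.68 in R8 and from 7.92 to 11.21 in B6. The range between brains of 1 strain was thus wider than the difference between strains. White matter is dense in these regions, and the part of the hindbrain and cord markers in the myelin result was not tested.

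The levels of neuronal, astrocyte and microglial markers overlapped between R8 and B6. The mean of 9 neuronal markers was 14.34 to 14.50 in R8 and 14.37 to 14.51 in B6, that of 9 astrocyte markers 12.36 to 12.63 in R8 and 12.37 to 12.52 in B6, and that of 9 microglial markers 9.68 to 10.01 in R8 and 9.80 to 10.03 in B6. In each of these 3 lists 0 genes had an unadjusted p under 0.05 between R8 and B6, beside 2.41% higher and 1.87% lower of all genes. With shares this small, 0 of 9 does not set a list apart. Of 7 tested genes of the choroid plexus 6 had a positive difference, and 1 of them, Cldn2, detected in 4 R8 and 0 B6 arrays, had p = 0.00483 and an adjusted p of 0.9 from limma. Of 6 tested endothelial genes 1, Flt1, had a p under 0.05 (-0.11, p = 0.0337). The mean of the choroid plexus genes lay between 10.37 and 10.78 in R8 and 9.98 and 10.67 in B6. Of 6 genes of Schwann cells, which myelinate nerve roots, 1 was tested, Egr2, with a difference of -0.20 (p = 0.129).

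Between R2 and D2, where the longer segment differs, the members stayed close to each other. None of 30 was called, beside 0.565% of all genes, and 0 had an unadjusted p under 0.05 in either direction, beside 9.35% higher and 7.18% lower of all genes. The median of the mature members was 0.01, against 0.01 over all genes, and 16 of 30 differences were positive. With 6 brains a strain the intervals are wide, as for Mag, at 0.02 with a 95% interval of -0.14 to 0.17, and for Mobp, at -0.00 with -0.25 to 0.24.

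The smallest p-values of this comparison belonged to Gjb1, Apod, Gpr17 and St18. Gjb1 had signals of 7.71, 7.99 and 8.16 in R2, against 7.03, 7.74 and 7.98 in D2, all of them not above background, so no fold is given. Apod had 12.68, 13.04 and 13.35 in R2, against 12.09, 12.95 and 13.16 in D2, a difference of 0.235 (p = 0.119 from limma) with D2 replicates 1 and 3 far below the others, and 0.10 without D2 replicate 1. Gpr17 had 10.28, 10.65 and 11.04 in R2, against 10.35, 10.48 and 10.80 in D2, a difference of 0.16 (p = 0.134), and 0.09 without R2 replicate 1. St18 had 10.54, 10.73 and 11.35 in R2, against 10.75, 10.85 and 11.73 in D2, a difference of -0.21 (p = 0.162), with -0.32 without R2 replicate 1 and -0.07 without D2 replicate 1.

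R8 minus B6 and D2 minus R2 both set D2 sequence against B6 sequence over the short segment of R8. The second minus the first, an interaction, compares these differences between backgrounds. D2 and R2 also differ over the rest of the longer R2 segment, and anything else fixed in either congenic line enters as well. The effect of background cannot be told apart from these in the interaction. This interaction was called for 0 of 30 members, beside 0.115% of all genes. At an unadjusted p under 0.05 from limma there were 0 members higher and 4 lower, beside 3.39% and 5.16% of all genes, namely Gpr17 (-0.44, p = 0.00249, adjusted p = 0.44), Mal (-0.34, p = 0.0169), Opalin (-0.25, p = 0.0183) and Pllp (-0.20, p = 0.0328). For Gpr17 the difference between R8 and B6 was 0.28 and that between R2 and D2 0.16, neither of them called.

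Of 30 further myelin proteins that are not among the 36, 23 were tested. On the D2 background 8 of them were called lower and 1 higher, beside 13.1% and 16.0% of all genes. Cdc42ep1, which binds the small GTPase Cdc42, was detected in 0 of 12 arrays on the D2 background and 20 of 20 on the B6 background, and it was at least 3.42-fold lower (adjusted p = 1.3e-23 from limma). The bound sets the B6 background mean against the lowest signal above background in each array. For Pip4k2a, a phosphoinositide kinase, the difference was -0.57 (adjusted p = 5.17e-17), and its 12 brains on the D2 background, 13.19 to 13.45, did not reach the 20 on the B6 background, 13.75 to 13.95. Il33, a nuclear cytokine of oligodendrocytes and astrocytes, had -0.77 (adjusted p = 1.22e-12), and Dusp15, a phosphatase, was higher by 0.34 (adjusted p = 2.55e-07).

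Of the progenitor markers 4 of 12 were tested, with 2 called higher and 2 lower, beside 16.0% and 13.1% of all genes. Pdgfra, the growth factor receptor of progenitors, was called higher on the D2 background by 0.33 (adjusted p = 4.32e-07 from limma), with signals of 11.56 to 11.87 there and 11.11 to 11.56 on the B6 background, which just overlapped. Matn4 was higher by 0.35 (adjusted p = 2.78e-06), while Cspg4 (NG2), detected in 1 of 12 arrays on the D2 background and 11 of 20 on the B6 background, was called lower (adjusted p = 0.00796). Gpr37l1 was called lower, at -0.16 (adjusted p = 0.0186). Of 5 further transcription factors of the lineage, Zeb2 alone was called, at -0.59 (adjusted p = 5.11e-15), beside 13.1% of all genes called lower. Other brain cells also express Zeb2.

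Within the segment itself lies Adamts4 (chromosome 1, 171250129 to 171262267), a matrix protease of oligodendrocytes. It was higher in R8, with 10.98 to 11.33, than in B6, with 9.37 to 10.07, by 1.37 (adjusted p = 5.14e-12 from limma), and lower in R2, with 9.56 to 10.53, than in D2, with 10.62 to 11.15, by 0.93 on the log2 scale (difference -0.93, adjusted p = 1.02e-05). Adamts4 was read by 1 probe, and whether the strains differ in sequence under it was not tested. For R8 against B6 the paper reports that QPCR in other mice gave the opposite direction to its arrays, so the direction is not settled. The other listed myelin proteins with an unadjusted p under 0.01 between R8 and B6 were Lgi3, a secreted protein of oligodendrocytes (0.14, p = 0.0039), and Gamt, which makes creatine (0.25, p = 0.00444). Between R2 and D2, of the listed myelin proteins, Omg, the oligodendrocyte myelin glycoprotein, was the one beside Adamts4 at that threshold (0.21, p = 0.00573, adjusted p = 0.162). None of these 3 was called.

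Many members tended to rise and sink together from brain to brain, though not in every strain. After each strain's mean was subtracted, the signal of a member and the mean of the other mature members had a median Pearson correlation of 0.53 over 30 members and 32 brains. Over genes that are not members the median was -0.01, with 95% of genes between -0.40 and 0.40. These correlations share the arrays and their normalization, and they are given as a description.

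Mag followed the others most closely (r = 0.79, Spearman's rho = 0.80), then Ugt8a (r = 0.73, rho = 0.73), Klk6 (r = 0.72, rho = 0.75) and the precursor gene Gpr17 (r = 0.72, rho = 0.74). Enpp6 had r = 0.65. The lowest were Mbp (0.02), whose brightest probe is near the ceiling of the scanner, St18 (0.11), Gjb1 (0.20) and Tmem98 (0.21). Tmem98, with the smallest p between R8 and B6, thus varied largely apart from the myelin genes. Within strains, Mag had r = 0.82 in the 10 R8 brains, 0.62 in the 10 B6 brains, 0.97 in the 6 R2 brains and 0.86 in the 6 D2 brains. Other members followed unevenly. In the same order of strains, Mog had 0.71, 0.06, 0.89 and 0.76, and Mobp 0.70, -0.08, 0.85 and 0.73. Cldn11 had 0.68, 0.72, 0.71 and 0.33.

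**Figure D5:**
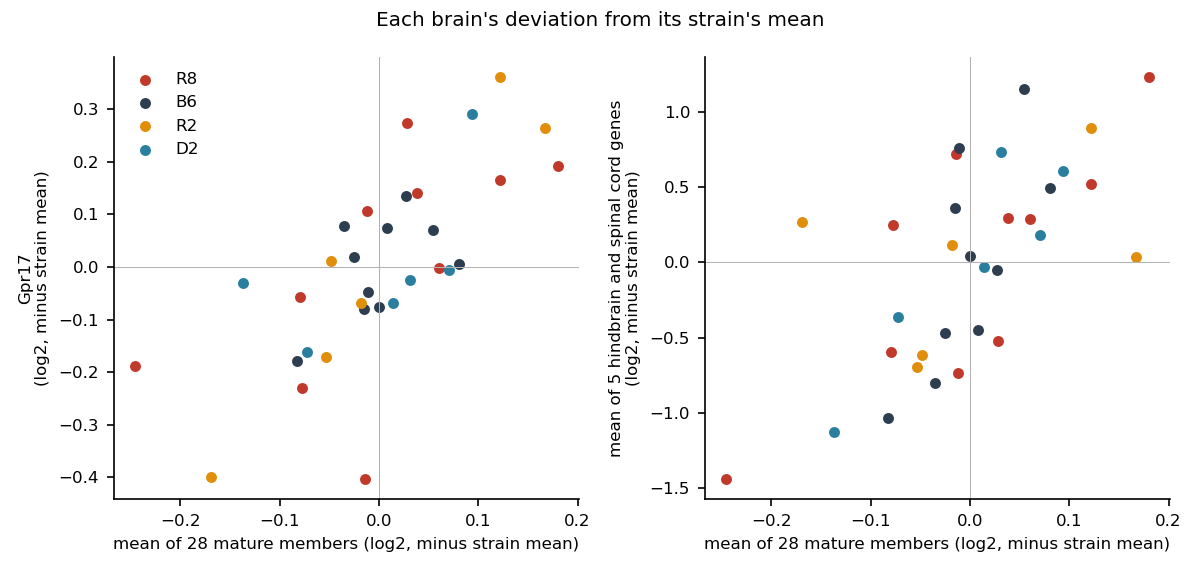
Deviation of each of the 32 brains from its strain's mean, for the mean of 28 mature members on the x axis and Gpr17 (left) or the mean of 5 hindbrain and spinal cord genes (right) on the y axis, all as log2 values. Both are higher in brains further right (Gpr17 with r = 0.72, the 5 genes with r = 0.67), and R8 replicate 9 is the brain at the far left.

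The 8 genes outside the list that were most like the mature members, by the same correlation over 32 brains, were Prr18 (0.77), Hspb8 (0.75), Fgf1 (0.71), Cyp51 (0.70), Tmem125 (0.68), Hoxb5 (0.66), Gm2a (0.66) and Sncg (0.66). Cyp51 makes cholesterol, Hspb8 is a small heat shock protein and Fgf1 a growth factor. Among marker lists, the mean of the 23 other myelin genes followed the mature mean with r = 0.75, that of the 5 hindbrain and spinal cord genes with 0.67 and that of 9 astrocyte genes with 0.60. For 9 neuronal genes r was 0.39, for 5 cerebellar genes 0.23, for 7 choroid plexus genes 0.21 and for 6 endothelial genes 0.13. It was 0.03 for 4 progenitor genes, -0.01 for the 5 other lineage transcription factors, -0.02 for 3 olfactory bulb genes and -0.03 for 9 microglial genes. Brains high in myelin genes thus tended to be high in the hindbrain and spinal cord genes and in the astrocyte genes, and less so in the cerebellar ones.

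The promoters of the tested members, whether or not they followed the others, were searched for short words. The word ACAAAG is a core site of SOX factors, and Sox10, itself without a probe here, drives myelin genes. The 250 bases before the RefSeq start were searched (GRCm38.p6, outermost listed start of each gene). Of the 20 tested members with a promoter in the table, 7 held the word on either strand (35%), beside 16.5% of 27025 promoters. They were Mag, Mobp, Cnp, Opalin, Gjb1, Apod and Klk6. The windows of Mag, Mobp and Opalin lie wholly before the annotated gene, while that of Cnp overlaps its gene. The other windows were not checked for this. The word CATATG, an E-box that OLIG factors can bind, was held by 1 of 20 (5%), Tspan2, beside 3.48%. The search was not tested and a match is not a site. The windows of Mag, the member that followed the others most closely, and of Mobp, which holds 6 copies, are shown with the SOX word, here read from the opposite strand, in capitals.
Mag, chr7:30914923-30915172, minus strand: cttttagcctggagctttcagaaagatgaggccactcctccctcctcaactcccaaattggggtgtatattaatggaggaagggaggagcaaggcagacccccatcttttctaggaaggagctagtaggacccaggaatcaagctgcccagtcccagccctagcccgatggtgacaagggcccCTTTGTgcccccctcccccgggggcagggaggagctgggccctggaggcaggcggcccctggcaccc
Mobp, chr9:120149492-120149741, plus strand: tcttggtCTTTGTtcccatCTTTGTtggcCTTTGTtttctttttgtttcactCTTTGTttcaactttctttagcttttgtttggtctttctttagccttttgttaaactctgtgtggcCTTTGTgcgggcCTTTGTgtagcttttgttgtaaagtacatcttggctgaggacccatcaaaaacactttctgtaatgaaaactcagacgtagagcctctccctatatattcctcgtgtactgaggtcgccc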

How the data were processed

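The authors hybridized biotin-labelled cRNA from whole brain of 32 mice, extracted with Trizol, to Illumina Mouse Ref8 v2 arrays. They deposited the average bead intensity of each of 25697 probes, without normalization or background subtraction, and a detection p-value beside each signal. A second deposited table holds the intensity after the authors' quantile normalization, with lumi according to the methods, and served as an alternative. Strain and replicate number came from the labels.

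Signals of all arrays were processed together by neqc of limma 3.58.1 in R 4.3.3, which infers the negative controls from the detection p-values (offset 16). A probe was kept where 6 or more arrays had a detection p under 0.01. Strain means and contrasts were fitted by lmFit and tested by eBayes with Benjamini-Hochberg adjustment over 12351 probes, and the counts over all genes use 1 probe for each of 8674 genes. The platform annotation named 23978 probes, 0 of them with several genes, and left 1719 unnamed. Positions are those of GRCm38.p6, and probe sequences were copied from a supplementary table. The fit was tested on simulated data.

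The members and marker lists were chosen with earlier results of these data known. Values in every strain are given for the 6 members with the smallest p between backgrounds and between R8 and B6, the 4 between R2 and D2, Gpr17, Enpp6 and members whose probes differ in direction or call. Of related genes, up to 4 with the smallest p in each comparison are named, and further genes were named after their values were seen. Alternatives covered background correction, normalization, the detection filter, the test, the probe of a gene, blocks and single arrays, and 1, the block of neighbouring columns, was added after the data were seen. No 2 arrays were duplicates (highest correlation of deviations 0.407). Replicate numbers did not pair R8 with B6 or R2 with D2. Signal over background stands in for depth.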

Additional observations from a re-analysis of the deposited data

Results flagged for a closer look

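Of 120 sets of values (30 members in 4 strains), 6 had 1 brain set apart from the others of its strain by more than Dixon's 95% limit, where chance gives about 1 in 20 sets. Mbp was at 15.99 in R2 replicate 4, with the nearest R2 brain at 16.1. Mobp was at 11.83 in D2 replicate 3, below the nearest D2 brain at 12.28. Opalin was at 12.18 in B6 replicate 4, above the nearest at 11.91. Cldn11 was at 15.8 in D2 replicate 1, above 15.6, and Tspan2 was at 13.44 in the same brain, above 13.01. Gpr17 was at 10.8 in D2 replicate 5, above 10.51. The cause of these values was not tested.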

How the results depend on the processing

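Of the members' counts, 2 moved by over 1.5 times. The number called higher on the D2 background, 2, was 1 without a detection filter, 1 with the replicate block, and 1 to 3 with single arrays left out. The number higher in R8 than in B6 at an unadjusted p under 0.01, 5, was 3 with median scaling, 8 with an intensity trend of the prior variance, and 3 to 9 with single arrays left out. The numbers called in the other comparisons stayed within 1.5 times, at 9 to 11 between backgrounds, 0 for R8 and B6, 0 for R2 and D2, 3 to 6 for D2 and B6 and 0 for the interaction. Plekhb1 lost its call without a filter and with the block (0.10, adjusted p = 0.166), and Mog with median scaling and with the block (-0.22, adjusted p = 0.0598). None of the differences recomputed under the alternatives changed sign. The median of the mature members between R2 and D2, 0.01, ran from -0.02 to 0.05 with single arrays left out.

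Same-numbered brains did not deviate together. Their deviations correlated between -0.29 and 0.313 for R8 and B6 and between -0.0562 and 0.158 for R2 and D2, so the numbers are not taken as pairs, and the replicate block changed no other call between backgrounds. A t-test of each probe on its own, at the threshold of the methods, gave 10 members at an unadjusted p under 0.01 between backgrounds (11 after adjustment), 5 between R8 and B6 (0 after), 0 between R2 and D2 and 6 between D2 and B6 (5 after). Fits of each pair of strains alone cannot give the comparison of backgrounds or the interaction, and the t-test was not run for the interaction. Signal over background limits Gjb1 and Gsn, and the ceiling limits Mbp.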
